A study of Mus musculus with 44 samples.

Results

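Start-site windows dominated by H3K4me1 are stretches around transcription start sites, compared for mono- (H3K4me1) and di-methylation (H3K4me2) of lysine 4 of histone H3. They took a much larger share of the counts in H3K4me1 libraries than in H3K4me2 libraries. Such shares do not measure how much of each mark the histones carried. They were chosen by the measured values of empty-vector HPC7 cells alone, as windows with a mean H3K4me1 of at least 20 CPM (the count scaled by its library's column total) that was also at least 4 times the mean H3K4me2. The rule found 1639 of 27095 windows (6.05%), of which 1423 had a gene symbol and 216 had none. The mirrored rule, with H3K4me2 at 20 CPM and 4 times H3K4me1, found 3 windows.

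HPC7 cells are an established mouse line of blood progenitors that depends on stem cell factor. They carried an MSCV-IRES-GFP retrovirus with wild-type Snai1, with a Snai1 whose phenylalanine at residue 5 is replaced by alanine, which weakens its contact with the demethylase Lsd1, or with no insert (empty vector). All 3 populations were transduced, sorted for GFP about a week later and expanded, so every group carries the viral vector, and in the Snai1 groups the virus adds to the cell's own gene. For each construct 3 H3K4me1 and 3 H3K4me2 libraries were counted, and the wild-type Snai1 cells also gave 2 IgG libraries. The labels do not say whether replicates were separate transductions or cultures, so p-values measure the spread between these libraries.

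H3K4me1 is a mark of enhancers and of the flanks of active promoters, and H3K4me2, like H3K4me3, is found around active, usually CpG-rich start sites. Neither H3K4me1 nor H3K4me2 is confined to these places. Lsd1 (gene Kdm1a) removes mono- and di-methylation of this lysine, and Snai1 is a zinc finger repressor that recruits it. A start site with H3K4me1 and little H3K4me2 is often found at genes that are poised or silent in the cell at hand, or where an enhancer lies next to the promoter.

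The 5 start-site sequences printed first belong to windows of this kind that recur below: the eosinophil lectin Siglecf, the prostaglandin D2 synthase Ptgds, neutrophil elastase (Elane), the type 2 cytokine Il13 and the chemokine Ccl17. The last, from the RNA polymerase II subunit gene Polr2a, is a window outside the set and is shown for contrast. Each holds 300 bases, 250 before to 50 after a start site, read 5′ to 3′ on the gene's strand from RefSeq (GRCm38.p6), with CpG dinucleotides in capitals. The count table holds 1 window per gene ID and no coordinates, so where a gene has several starts the window may be centred on another one.
Siglecf, chr7:43351091-43351390 (+ strand): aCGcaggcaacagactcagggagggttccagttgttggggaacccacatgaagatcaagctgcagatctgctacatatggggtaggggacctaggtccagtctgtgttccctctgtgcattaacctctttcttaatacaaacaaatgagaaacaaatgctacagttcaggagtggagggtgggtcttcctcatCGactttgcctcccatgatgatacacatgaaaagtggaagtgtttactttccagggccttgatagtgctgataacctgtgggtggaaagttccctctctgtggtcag
Ptgds, chr2:25469700-25469999 (- strand): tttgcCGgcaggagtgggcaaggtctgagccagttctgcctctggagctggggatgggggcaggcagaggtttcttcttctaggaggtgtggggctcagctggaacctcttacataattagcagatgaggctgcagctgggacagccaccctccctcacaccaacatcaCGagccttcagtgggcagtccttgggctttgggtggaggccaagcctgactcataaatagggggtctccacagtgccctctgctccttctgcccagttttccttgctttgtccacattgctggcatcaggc
Elane, chr10:79886062-79886361 (+ strand): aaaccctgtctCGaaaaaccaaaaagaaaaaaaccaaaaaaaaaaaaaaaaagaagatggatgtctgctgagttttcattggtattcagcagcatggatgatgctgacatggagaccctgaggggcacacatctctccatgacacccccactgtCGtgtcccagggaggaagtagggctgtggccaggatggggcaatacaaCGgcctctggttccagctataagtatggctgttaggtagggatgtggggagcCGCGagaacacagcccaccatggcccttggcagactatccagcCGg
Il13, chr11:53634653-53634952 (- strand): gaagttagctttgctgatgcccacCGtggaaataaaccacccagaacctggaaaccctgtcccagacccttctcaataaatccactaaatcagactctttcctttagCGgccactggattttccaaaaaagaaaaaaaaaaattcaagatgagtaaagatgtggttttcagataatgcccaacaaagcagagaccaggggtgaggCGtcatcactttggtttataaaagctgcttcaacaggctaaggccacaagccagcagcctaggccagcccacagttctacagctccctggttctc
Ccl17, chr8:94810203-94810502 (+ strand): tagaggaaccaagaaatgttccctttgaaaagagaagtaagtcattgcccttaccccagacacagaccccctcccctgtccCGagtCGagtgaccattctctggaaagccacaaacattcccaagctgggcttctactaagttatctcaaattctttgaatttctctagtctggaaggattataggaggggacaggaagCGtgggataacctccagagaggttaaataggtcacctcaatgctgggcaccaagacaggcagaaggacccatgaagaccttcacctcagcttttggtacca
Polr2a, chr11:69758584-69758883 (- strand): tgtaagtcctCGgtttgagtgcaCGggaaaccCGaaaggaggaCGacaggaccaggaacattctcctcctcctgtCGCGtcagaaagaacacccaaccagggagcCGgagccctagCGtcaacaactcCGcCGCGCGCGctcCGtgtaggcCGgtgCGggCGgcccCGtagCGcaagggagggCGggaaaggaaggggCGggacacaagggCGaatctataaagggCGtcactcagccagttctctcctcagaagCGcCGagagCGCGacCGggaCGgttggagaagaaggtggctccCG
Siglecf and Ptgds have 2 CpG each in these letters, Il13 and Ccl17 have 3 and Elane has 6, against 30 in Polr2a. The Polr2a window carried both marks, with mean H3K4me1 of 139.6, 106.0 and 131.6 CPM in wild-type Snai1, mutant Snai1 and empty-vector cells, and mean H3K4me2 of 107.6, 84.4 and 110.0 CPM in the same order.

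The set as a whole was CpG-poor. Of 997 windows with a start-site sequence, 831 have exactly 1, and in these the median was 5.0 CpG per 300 bases, against 21.0 in 7916 other windows that reached the same H3K4me1 level and 12 in all 15637 windows with 1 sequence. The ratio of observed to expected CpG had a median of 0.253 in H3K4me1-dominated windows, 0.779 in the other windows at that level and 0.241 in 6890 windows below it. A ratio of at least 0.6, typical of CpG islands, was reached by 121 of the 831 (14.6%) and by 5846 of the 7916 (73.9%). GC content alone separated them less, with medians of 54.0% in H3K4me1-dominated windows and 61.0% in the other windows at that level. The set's median CpG ratio was thus closer to that of windows below the level than to that of windows at it. Within the set the median ratio of H3K4me1 to H3K4me2 was 5.00, 5.18 and 4.90 in wild-type Snai1 cells for starts with at most 5, 6 to 15 and more than 15 CpG. The rule chose windows by this ratio in empty-vector cells, so these medians cannot show whether the balance depends on CpG content.

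**Figure D1:**
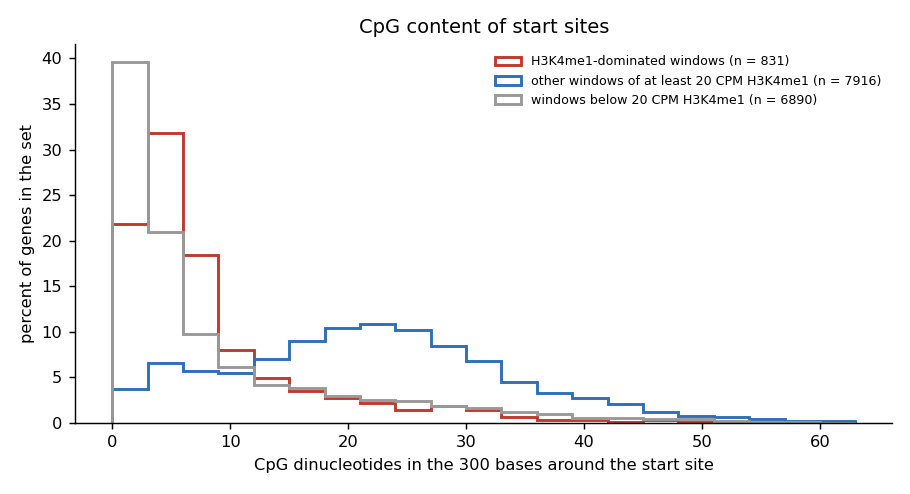
CpG dinucleotides in the 300 bases around the start site (x axis) of windows with 1 start-site sequence, as percent of the genes in each set (y axis). H3K4me1-dominated windows (red, n = 831) peak at few CpG, as do windows below 20 CPM H3K4me1 (grey, n = 6890), while the other windows at the H3K4me1 level (blue, n = 7916) centre near 21.

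Short motifs were counted on both strands of the same 831 starts. The E-box CAGGTG, the sequence that Snail-family proteins bind, was present in 256 (30.8%), against 17.0% of the other windows at the H3K4me1 level, 21.0% of windows below it and 19.5% of all. The site of GATA factors, searched as AGATAA, was present in 13.1%, against 6.1% of the other windows at that level, 14.3% of windows below it and 10.1% of all. TATAAA was present in 12.5% of the set, 7.3% of the other windows at that level, 21.7% of windows below it and 13.9% of all. In the same order GAGGAA, an ETS site of the PU.1 kind, stood at 31.2%, 26.6%, 27.8% and 27.4%, and the Runx site TGTGGT at 18.5%, 12.7%, 17.9% and 15.3%. None of these motifs contains another, and a match describes the letters only. In the printed sequences, Siglecf holds the ETS and Runx sites, Elane the ETS site, Il13 the TATA, GATA and Runx sites and Ccl17 the GATA and ETS sites. Polr2a holds the TATA site, and none of these letters were found in Ptgds.

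As to depth, the windows' counts summed to between 4042976 and 8813537 per H3K4me1 library, 8694515 and 18199945 per H3K4me2 library, and 2714255 and 3355479 in the IgG libraries. A median H3K4me1-dominated window held 164 to 303 counts of H3K4me1, 66 to 121 of H3K4me2 and 107 or 142 of IgG, so counting error alone is largest for H3K4me2. Replicate 1 stood apart from replicates 2 and 3 in every construct and mark. Over the set, the observed variance between replicate 1 and replicate 2 or 3 was 18.4 to 28.7 times the counting variance for H3K4me1 and 7.91 to 9.93 times for H3K4me2. Between replicates 2 and 3 it was 0.97 to 1.37 and 1.05 to 1.16 times. For empty-vector H3K4me1 that ratio was 0.97, which is within sampling noise, although the rule takes these replicates as separate. Counted as 1 sample, they make the rule pick 1503 windows, of which 1429 are in the set. The main tests likewise take replicates 2 and 3 of the Snai1 cells as separate. There the ratio was 1.03 in wild-type and 1.37 in mutant Snai1 cells for H3K4me1, and 1.16 and 1.07 for H3K4me2. If these are not separate samples, the p-values of those tests are too small. Of 10 progenitor markers, 8 (Kit, Gata2, Tal1, Lyl1, Fli1, Runx1, Cd34 and Ptprc) carried mean empty-vector H3K4me2 of at least 113.8 CPM, while Erg had 3.99 CPM and Lmo2, which is one of the H3K4me1-dominated windows, had 16.8 CPM. Median H3K4me2 of B cell, T cell, epithelial, fibroblast, erythroid and neutrophil markers lay between 3.51 and 14.4 CPM. The highest single marker had 17.5, 31.7, 6.04, 31.5, 76.2 and 10.4 CPM in the same order.

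The rule fixes the empty-vector values, which are a description. There the set's median was 40.4 CPM of H3K4me1 and 7.79 CPM of H3K4me2, 803 windows lay between 20 and 40 CPM and 164 reached 100 CPM. The ratio of the marks was between 4 and 5 in 817 windows and at least 8 in 35. Just inside the level stood Efcab15, Tmem51os1 and Mir3971 with 20.01, 20.01 and 20.03 CPM, and just outside Timp2, Loxl1 and Ngp with 19.98, 19.95 and 19.93 CPM. Just inside the ratio of 4 stood Slc36a3, Barhl1 and Muc5b with 4.000, 4.002 and 4.003, and just outside Acer1, Tmem72 and Septin1 with 3.999, 3.997 and 3.996.

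The genes of the set came from every chromosome except Y. Protein-coding genes made up 1085 of the windows, long non-coding RNAs 201, annotated microRNAs 47 and V segments of antigen receptor genes 39. As a share of all windows of their kind these were 5.18%, 9.69%, 7.31% and 10.4%. By chromosome the share was highest on chromosome 11 (8.08%), 19 (7.66%) and 15 (7.53%), and was 1.12% on X and 0.0% on Y. No ribosomal protein gene of 79, no clustered protocadherin gene of 58, no cell cycle gene of 30 and no gene of 20 for Lsd1 and its partners was in the set. Over all windows the share was 6.05%. Lists of 20 or 30 genes would hold few at that share, so their absence tells little. Olfactory receptor genes, which are silent in blood cells, gave 11 of 1126. Of 997 windows with a known start, 66 had another one of the set within 5 kb, so such neighbours can share reads.

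Genes of mast cells, lymphocytes and cytokines made up larger shares than most other lists. Where 6.05% of all windows were H3K4me1-dominated, the share was 35.0% of 20 mast cell and basophil genes, 33.3% of 30 inflammatory cytokine and chemokine genes, 26.7% of 30 T and NK cell genes, 26.3% of 19 B cell genes and 6 of 40 cytokine and chemokine receptor genes. It was 7.14% of 42 myeloid and phagocyte genes, 2 of 29 erythroid and megakaryocytic genes and 6.67% of 30 stem and progenitor genes. Outside blood, it was 10.0% of 30 epithelial genes (Krt7, Krt8 and Ovol1) and 6.67% of 30 mesenchymal genes (Tagln and Mmp2). Of 26 housekeeping genes 7.69% were in the set, and of 30 interferon response genes 3.33%, the nucleic acid sensor Zbp1. By gene name, 4 of 6 Siglec genes, 11 of 39 chemokine genes, 8 of 37 interleukin genes and 3 of 10 paired immunoglobulin-like and Lilr receptor genes were in the set. So were 3 of 14 Fc receptor, 2 of 12 Cd300, 2 of 12 Toll-like receptor, 2 of 20 Ms4a and 6 of 61 C-type lectin genes. Other immune families gave few or none: 1 of 19 granzyme and mast cell protease genes, 0 of 5 Slam family, 0 of 11 Schlafen and 0 of 11 guanylate-binding protein genes. These are counts in empty-vector cells with no test, over lists drawn up with results of these data known.

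In cells with either Snai1 construct H3K4me1 again exceeded H3K4me2 at these windows. The set's median was 38.2 CPM of H3K4me1 and 6.97 CPM of H3K4me2 in wild-type Snai1 cells, and 38.8 and 8.02 CPM in mutant Snai1 cells. The median ratio of H3K4me1 to H3K4me2 was 5.14 in wild-type Snai1 cells, 4.68 in mutant Snai1 cells and 5.00 in empty-vector cells. In the 12835 other windows with at least 20 CPM of H3K4me1 it was 0.83, 0.84 and 0.82. Within same-numbered libraries, all 1639 windows had more H3K4me1 than H3K4me2 CPM in each of the 9 pairs. The empty-vector pairs among them were used by the rule, so their outcome was nearly fixed in advance. The median ratio by pair was 4.70, 5.15 and 4.87 in wild-type Snai1 replicates 1, 2 and 3, was 5.204, 4.206 and 4.253 in mutant Snai1, and was 4.56, 5.02 and 4.93 in empty vector. Replicate 1 was thus the highest of the mutant libraries and the lowest of the other constructs.

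**Figure D2:**
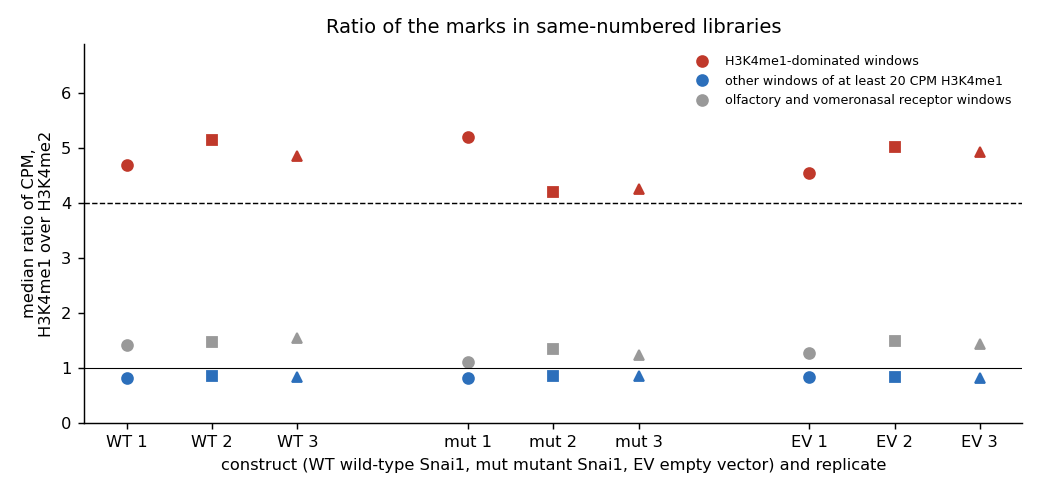
Median ratio of H3K4me1 to H3K4me2 CPM (y axis) in same-numbered libraries of each construct (x axis), with circles, squares and triangles for replicates 1, 2 and 3. H3K4me1-dominated windows (red) lie between 4.206 and 5.204, other windows of at least 20 CPM H3K4me1 (blue) between 0.81 and 0.86, and olfactory and vomeronasal receptor windows (grey) between 1.10 and 1.54. The dashed line is the ratio of 4 in the rule.

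Tested in the 12 Snai1 libraries, which the rule did not use, H3K4me1 was higher than H3K4me2 at 1637 of 1638 H3K4me1-dominated windows in wild-type Snai1 cells, where 38.1% of all 25880 windows tested were called in that direction (edgeR's quasi-likelihood test, Benjamini-Hochberg adjusted p under 0.05 over all windows). The exception was the microRNA window Mir5124a. In mutant Snai1 cells 1636 were called, against 30.9% of all, with the overlapping windows Tmem51 and Tmem51os1 as exceptions. With a fold of at least 4 as well, 1396 (85.2%) were called in wild-type Snai1 cells against 8.62% of all windows, and 1260 (76.9%) in mutant Snai1 cells against 6.63% of all. The median log2 ratio was 2.36 in wild-type and 2.23 in mutant Snai1 cells, against 0.54 and 0.31 over all windows tested. These ratios rest on column totals. Scaled to olfactory and vomeronasal receptor windows, the medians were 1.40 and 1.63 in the set and -0.42 and -0.32 over all windows, 1559 and 1623 windows were still called (95.2% and 99.1%, against 12.9% and 17.2% of all), and 114 and 257 reached 4-fold. Relative to all windows the set lay 1.82 higher in wild-type Snai1 cells under both scalings, and 1.92 and 1.96 higher in mutant Snai1 cells. Rescaling moves all windows by nearly the same amount, so this gap could hardly change and is no check on the scaling. One window was a repeated row and was not tested.

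The full rule, applied to each construct's own means, was met again by 1291 of the 1639 windows (78.8%) in wild-type Snai1 cells and by 1224 (74.7%) in mutant Snai1 cells. Both were met by 1098 and neither by 222. In wild-type Snai1 cells 205 fell short of 20 CPM and 241 of the ratio, and in mutant Snai1 cells 125 and 381. A ratio under 2 was rare, with 1 window in wild-type Snai1 cells (Mir5124a, 1.71) and 4 in mutant Snai1 cells. From the other side, the rule picked 1634 windows in wild-type Snai1 cells, of which 79.0% were of the set, and 1431 in mutant Snai1 cells, of which 85.5% were.

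**Figure D3:**
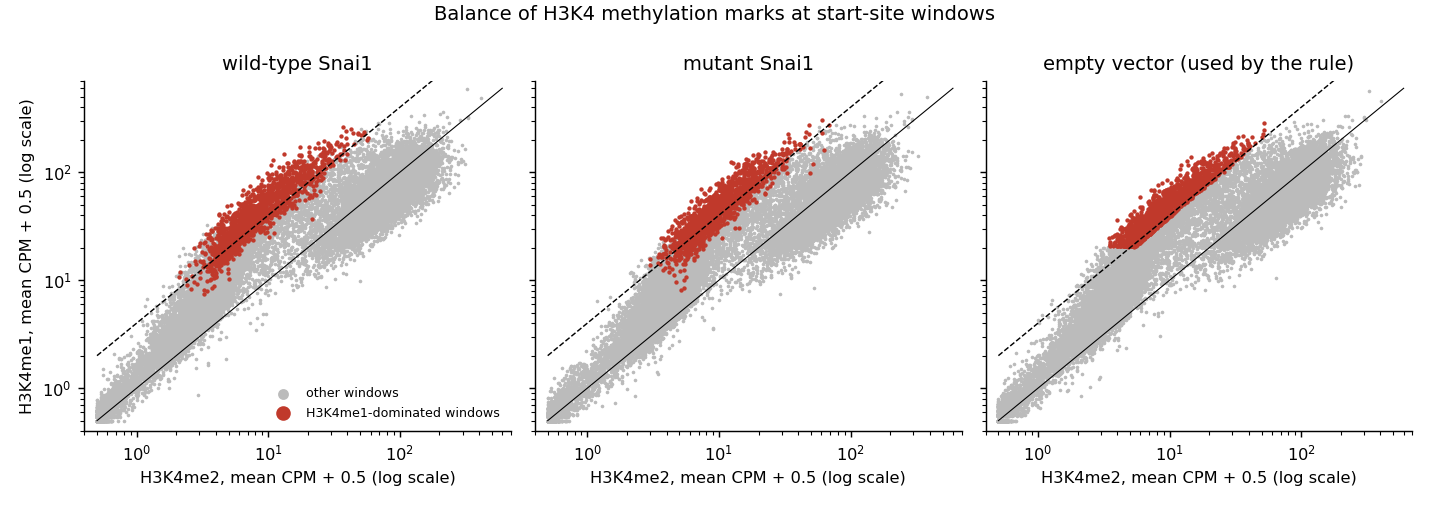
Mean H3K4me1 (y axis) against mean H3K4me2 (x axis), both as CPM + 0.5 on log scales, for every window in wild-type Snai1, mutant Snai1 and empty-vector cells. The solid line is equality and the dashed line 4 times as much H3K4me1. The H3K4me1-dominated windows (red) form the upper edge of the cloud in all 3 constructs, and their sharp lower border in the empty-vector panel is the rule itself.

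The windows with most H3K4me1 were mixed in function. By empty-vector level the first 12 were Snai3, a Snail-family transcription factor, Pkd1l2, a polycystin-like gene, Siglecf, Hgfac, the activating protease of hepatocyte growth factor, the solute carrier Slc17a4, the cartilage protein gene Matn1, the long non-coding RNA Scarletltr, Mpp4, Ndst1, an enzyme of heparan sulfate synthesis, the muscle calcium pump Atp2a1, Mical3 and Itgax, the CD11c integrin of dendritic cells. Siglecf had 202.2, 231.0 and 240.3 CPM of H3K4me1 in wild-type Snai1 replicates 1 to 3, 236.1, 202.5 and 200.3 CPM in mutant Snai1 and 191.8, 222.8 and 225.2 CPM in empty vector. Its H3K4me2 was 39.1, 56.9 and 63.1 CPM in wild-type Snai1, 37.9, 48.1 and 47.5 CPM in mutant Snai1 and 35.4, 55.2 and 59.0 CPM in empty vector. The marks did not overlap in any construct, and the constructs overlapped in both marks. H3K4me1 stood above H3K4me2 by 2.09 ± 0.17 on the log2 scale in wild-type Snai1 cells and by 2.26 ± 0.17 in mutant Snai1 cells (± SE, edgeR adjusted p 2.95e-07 and 1.8e-07).

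Itgax averaged 141.7 ± 20.1 CPM of H3K4me1 and 20.3 ± 3.66 CPM of H3K4me2 in wild-type Snai1 cells, and 114.4 ± 11.4 and 20.3 ± 5.22 CPM in mutant Snai1 cells (SD, n = 3 each). Snai3 averaged 207.3 ± 37.0 CPM of H3K4me1 in wild-type Snai1 cells and 272.6 ± 17.9 CPM in mutant Snai1 cells, with H3K4me2 of 38.5 ± 13.9 and 68.1 ± 9.54 CPM (SD, n = 3 each).

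The highest ratios of H3K4me1 to H3K4me2 over the Snai1 libraries belonged to Ptgds, Mrvi1, a substrate of cGMP-dependent kinase, Mir33, a microRNA within the sterol regulator Srebf2, Tmem86b, the muscle kinase gene Dmpk, Mir1941, Mir3100, the protease gene Htra3, apolipoprotein E (Apoe), the potassium channel Kcnn1, Mir3074-1 and the integrin Itgae. Ptgds had 122.5, 130.1 and 133.2 CPM of H3K4me1 in wild-type Snai1 cells, 140.3, 118.9 and 110.8 CPM in mutant Snai1 cells and 133.4, 123.2 and 123.6 CPM in empty-vector cells. Its H3K4me2 was 10.8, 9.5 and 10.7 CPM in wild-type Snai1 cells, 12.1, 11.2 and 12.3 CPM in mutant Snai1 cells and 14.3, 12.4 and 12.8 CPM in empty-vector cells. No library came near an overlap of the marks, and the difference was 3.63 ± 0.12 on the log2 scale in wild-type Snai1 cells and 3.38 ± 0.12 in mutant Snai1 cells (± SE, edgeR adjusted p 4.45e-10 and 1.04e-09). Windows with a microRNA gene name, which are not all annotated as microRNAs, had 48 of 656 in the set, with median ratios of 6.41 in wild-type and 5.97 in mutant Snai1 cells.

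Genes of mast cells and basophils had the highest share of the blood lists. Among the 7 windows were Alox5 and Ltc4s, enzymes of leukotriene synthesis, Il1rl1, the receptor for interleukin 33, the type 2 cytokines Il4 and Il13 and the chymase Cma1. Il13 had 82.3, 82.9 and 84.0 CPM of H3K4me1 in wild-type Snai1 cells, 88.4, 76.2 and 92.8 CPM in mutant Snai1 cells and 84.0, 64.4 and 66.0 CPM in empty-vector cells. Its H3K4me2 was 11.4, 12.9 and 14.7 CPM in wild-type Snai1 cells, 10.2, 14.7 and 16.9 CPM in mutant Snai1 cells and 11.9, 11.6 and 9.3 CPM in empty-vector cells. The constructs overlapped in each mark. H3K4me1 exceeded H3K4me2 by 2.68 ± 0.17 at Il13 and 2.64 ± 0.20 at its chromosomal neighbour Il4 in wild-type Snai1 cells, on the log2 scale (± SE, edgeR adjusted p 3.25e-08 and 1.26e-07). Over the 7 windows the median ratio was 5.64 in wild-type and 5.41 in mutant Snai1 cells, and 6 of the 7 kept a ratio of at least 4 in each. Il1rl1 did not, with 3.78 in wild-type and 3.64 in mutant Snai1 cells.

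Inflammatory cytokines and chemokines gave 10 windows, led by Ccl5, Il1b, Ccl4, Osm, Il1a and Ccl17. Ccl5, a chemokine for T cells and eosinophils, averaged 123.9 ± 13.4 CPM of H3K4me1 and 15.1 ± 0.46 CPM of H3K4me2 in wild-type Snai1 cells, and 101.9 ± 8.76 and 14.6 ± 1.24 CPM in mutant Snai1 cells (SD, n = 3 each). The ratio of the marks was 8.22 in wild-type and 7.01 in mutant Snai1 cells at Ccl5. At Ccl17 it was 7.65 and 8.67, with H3K4me1 of 59.1 ± 5.21 and 86.7 ± 17.8 CPM (SD, n = 3 each). The median ratio over the 10 windows was 4.91 in wild-type and 4.27 in mutant Snai1 cells, and 7 and 6 of them kept a ratio of at least 4. Receptor windows were Cxcr5, Il1rl1, Ccr3, Il1r2, Ccr6 and Il18r1. Cxcr5, which guides lymphocytes to B cell follicles, had H3K4me1 of 108.2, 154.4 and 156.3 CPM in wild-type Snai1 cells and 109.3, 103.7 and 103.9 CPM in mutant Snai1 cells.

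Myeloid granule and adhesion genes gave Itgax, Elane and Ltf (lactoferrin). Elane had 95.2, 106.9 and 108.8 CPM of H3K4me1 in wild-type Snai1 cells, 100.4, 97.0 and 112.0 CPM in mutant Snai1 cells and 95.7, 132.9 and 138.5 CPM in empty-vector cells. Its H3K4me2 was 11.5, 16.2 and 16.4 CPM in wild-type Snai1 cells, 9.1, 23.3 and 18.7 CPM in mutant Snai1 cells and 11.9, 19.1 and 19.4 CPM in empty-vector cells. Replicate 1 was the lowest of its construct in H3K4me2 throughout, and the constructs overlapped. The red cell and platelet lineages gave Slc4a1, the anion exchanger of the red cell membrane, and the platelet chemokine Ppbp, with ratios of 6.23 and 4.99 in wild-type Snai1 cells and 5.03 and 5.05 in mutant Snai1 cells.

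Lymphoid windows included the B cell receptor partners Cd79a and Cd79b with Cd22 and the kinase Blk, and on the T and NK side Zap70, Cd27, Cd5, Klrb1c, Cd28 and Cd247 of 8. Cd27, a costimulatory receptor of the TNF receptor family, averaged 109.0 ± 24.5 CPM of H3K4me1 and 19.0 ± 2.62 CPM of H3K4me2 in wild-type Snai1 cells and 85.2 ± 3.97 and 19.0 ± 3.10 CPM in mutant Snai1 cells (SD, n = 3 each). The 8 T and NK windows all kept a ratio of at least 4 in wild-type Snai1 cells and 5 of the 8 did in mutant Snai1 cells. Of the 5 B cell windows, 2 did in each construct. At Blk, H3K4me1 was 13.1, 12.9 and 12.8 CPM in wild-type Snai1 cells and 9.1, 15.4 and 11.4 CPM in mutant Snai1 cells, against 10.4, 38.0 and 43.6 CPM in empty-vector cells. Only empty-vector replicates 2 and 3 stood above the level of the rule there.

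Segments of T cell receptor and immunoglobulin genes gave 47 of 499 windows, with median ratios of 5.56 in wild-type and 4.84 in mutant Snai1 cells. Trbv17, a T cell receptor beta variable segment, had H3K4me1 of 72.2, 133.2 and 122.3 CPM in wild-type Snai1 cells and 81.0, 97.7 and 93.0 CPM in mutant Snai1 cells, with IgG of 17.0 and 25.1 CPM in wild-type Snai1 cells. Segments lie close to each other and are alike in sequence, so neighbouring windows can share reads, and how reads with several matches were counted is not given in the sources used here.

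Among stem and progenitor genes the windows were Lmo2, a bridging protein of blood transcription complexes, and Ly6a, the surface marker Sca-1. Lmo2 had H3K4me2 of 11.3, 19.7 and 20.4 CPM in wild-type Snai1 cells, 11.98, 71.5 and 70.4 CPM in mutant Snai1 cells and 12.8, 19.2 and 18.5 CPM in empty-vector cells. Its H3K4me1 was 73.5, 83.5 and 77.9 CPM in wild-type Snai1 cells, 90.3, 138.4 and 129.6 CPM in mutant Snai1 cells and 76.7, 107.7 and 106.6 CPM in empty-vector cells. Mutant replicates 2 and 3 thus stood apart from every other library in H3K4me2, while mutant replicate 1 did not, and the ratio of the marks was 4.57 in wild-type and 2.33 in mutant Snai1 cells. The difference of wild type from mutant in H3K4me2 was -1.42 ± 0.44 on the log2 scale and did not pass (edgeR, p 0.00589 and adjusted p 0.484). Ly6a had H3K4me1 of 64.05, 63.1 and 62.5 CPM in wild-type Snai1 cells, against 24.96, 45.7 and 48.5 CPM in mutant Snai1 cells and 21.2, 58.2 and 61.2 CPM in empty-vector cells, and did not pass either (log2 difference of wild type from mutant 0.72 ± 0.20, adjusted p 0.738). The housekeeping list held Rab7, a GTPase of late endosomes, and Ywhaz, a 14-3-3 adaptor, with ratios of 7.51 and 7.16 in wild-type Snai1 cells and 6.15 and 5.11 in mutant Snai1 cells. Which start of these genes the windows hold is not given.

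**Figure D4:**
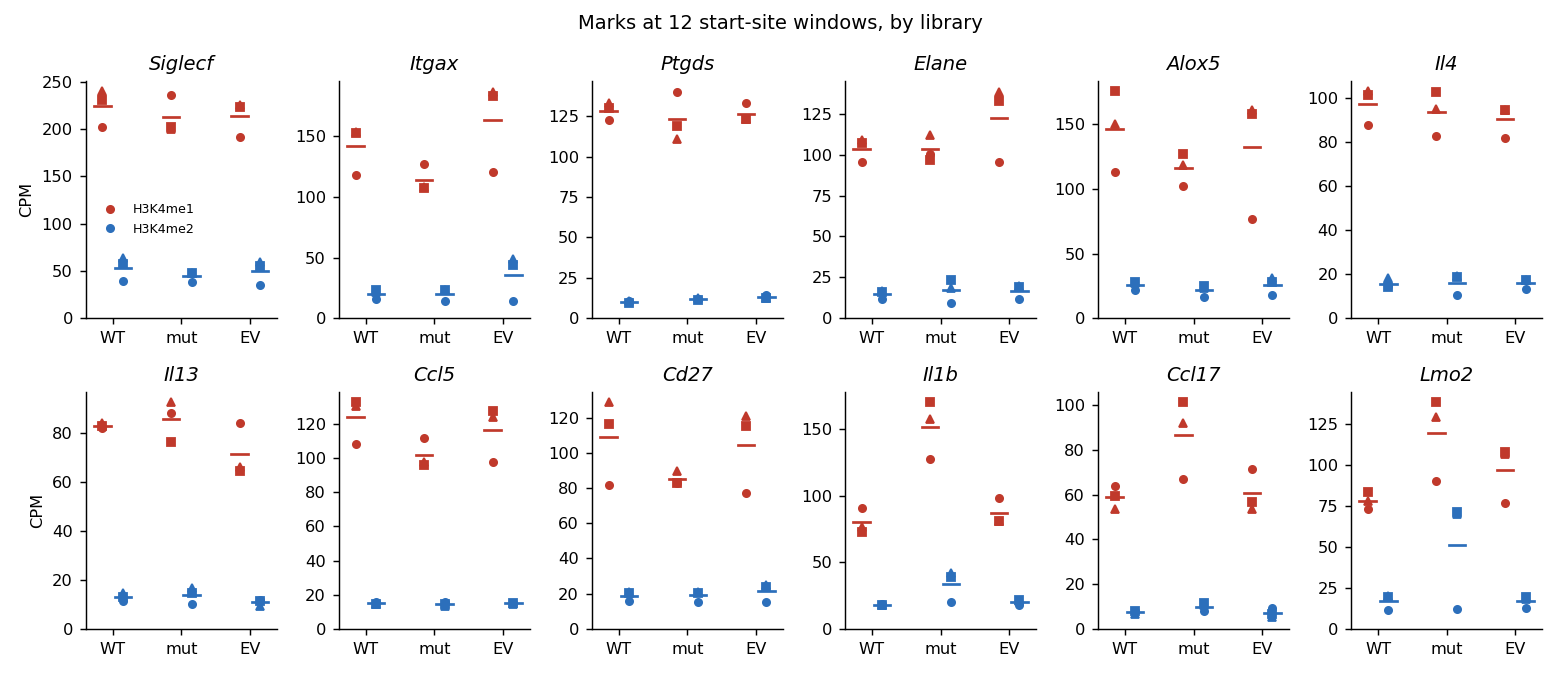
CPM (y axis, from 0) of H3K4me1 (red) and H3K4me2 (blue) at 12 H3K4me1-dominated windows in wild-type Snai1 (WT), mutant Snai1 (mut) and empty-vector (EV) cells. Circles, squares and triangles are replicates 1, 2 and 3, and bars are means. H3K4me1 lies above H3K4me2 in every same-numbered pair, of which the empty-vector pairs were used by the rule. At Lmo2 mutant replicates 2 and 3 have H3K4me2 of 71.5 and 70.4 CPM against 11.98 CPM in replicate 1.

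Against IgG, the mock precipitation, H3K4me1 was called higher by column totals about as often in the set as in all windows. It was called higher less often than in the other windows at the H3K4me1 level. The median window had 38.2 CPM of H3K4me1 and 6.97 CPM of H3K4me2 against 41.3 CPM of IgG in wild-type Snai1 cells, and the other windows at the H3K4me1 level had 57.0 and 70.3 against 42.1 CPM. H3K4me1 was higher than IgG at 476 windows (29.1%, against 29.0% of 26235 windows tested) and lower at 448 (27.4%, against 48.9%). In the other windows at the H3K4me1 level 55.3% were higher and 8.93% lower. H3K4me2 was higher at 0 windows, against 35.6% of all, and lower at 1597 (97.5%), against 55.7% of all (edgeR, adjusted p under 0.05, 8 libraries). For H3K4me2, DESeq2 called 1 window higher, against 9120 of all 27044. With edgeR 1598 windows passed an unadjusted threshold of 0.05 in either direction, against 24023 of all 26235. These directions depend on the scaling: relative to olfactory and vomeronasal receptor windows, H3K4me1 was higher than IgG at 1608 windows (98.2%, against 63.7% of all) and lower at 0, and H3K4me2 was higher at 1014 (61.9%, against 14490 of all 25865) and lower at 1. That scaling moved the median of all windows by log2 from -0.45 up to 2.20 for H3K4me1 and from -1.89 up to 1.85 for H3K4me2. Relative to the median of all windows, the set lay 0.43 higher in H3K4me1 and 0.58 lower in H3K4me2 by column totals, and 0.39 higher and 0.76 lower on the other scaling. These gaps too are nearly fixed under rescaling and are no check on it.

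The windows highest over IgG were Mir3075, Mir3100, Slc17a4, Siglecf, Scarletltr and Trbv17, with log2 ratios of H3K4me1 from 2.62 at Mir3075 to 2.39 at Trbv17. The lowest were F7 (coagulation factor VII), the potassium channel Kcnk3, Rp1, the neighbours Tmem51 and Tmem51os1, and Bcas3os2, from -2.63 at F7 to -2.20 at Bcas3os2. At F7, wild-type Snai1 cells had 15.8, 6.5 and 8.9 CPM of H3K4me1, mutant Snai1 cells 9.6, 32.1 and 30.9 CPM and empty-vector cells 12.4, 40.9 and 28.7 CPM. Its place in the set therefore rests on empty-vector replicates 2 and 3.

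Wild-type and mutant Snai1 differ in how well Snai1 contacts Lsd1, and their comparison asks whether that contact alters the marks. No H3K4me1-dominated window passed in H3K4me1 (0 of 1638, against 0.0% of 25336 windows, smallest adjusted p in the set 0.427) or in H3K4me2 (0, against 0.0078% of 25637, smallest 0.148) with edgeR. DESeq2's Wald test called 9 windows in H3K4me1 (0.549%, against 0.159% of all) and 12 in H3K4me2 (0.733%, against 0.237% of all). At an unadjusted p under 0.05 there were 285 in H3K4me1 (17.4%, against 5.57% of all windows), 117 higher in wild type and 168 lower. In H3K4me2 there were 185 (11.3%, against 8.94% of all), 75 higher in wild type and 110 lower. The median log2 difference was -0.02 in H3K4me1 and -0.06 in H3K4me2, and 90% of windows lay between -0.69 and 0.55 and between -0.71 and 0.58. The balance of the marks did not pass at any window either (0, against 0.0%), also with DESeq2, with 20 at an unadjusted p under 0.05 (1.22%, against 0.788% of all). Among the smallest p for the balance were those of Smim5, Slc22a3, Prss39, Adamtsl2 and Carns1. Without mutant replicate 1, 202 windows were called in H3K4me1 (12.3%, against 4.88% of all) and 147 in H3K4me2 (8.97%, against 15.9% of all). Without wild-type replicate 1, 5 were called in H3K4me1 (0.305%, against 0.0392%) and 28 in H3K4me2 (1.71%, against 1.13%).

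The difference between the constructs itself varied between replicates. The log2 difference of wild type from mutant had an SD over the set of 0.33 in replicate 1 and 0.56 in replicates 2 and 3 for H3K4me1, against 0.20 and 0.35 in the other windows at that level and 0.39 and 0.47 over all windows. Across the 1639 windows, which are not independent, the differences of replicates 2 and 3 correlated with each other (r = 0.92 in H3K4me1 and 0.83 in H3K4me2), while that of replicate 1 did not correlate with their mean (r = -0.06 and -0.05). A difference of at least 2-fold was seen at 118 windows (7.20%) in replicates 2 and 3 and at 18 (1.10%) in replicate 1 for H3K4me1, against 4.30% and 2.56% of all windows. Fitted on replicates 2 and 3 alone, 1037 windows were called in H3K4me1 (63.3%, against 10158 of all 25423) and 784 in H3K4me2 (47.9%, against 55.6% of all). That fit, chosen after seeing the data, leaves out replicate 1.

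**Figure D5:**
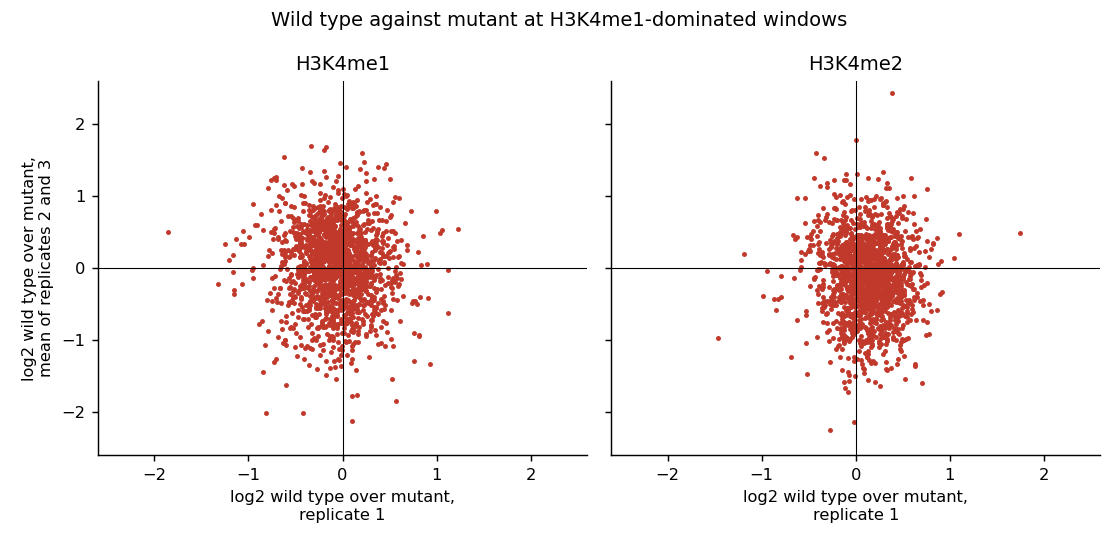
Log2 CPM of wild type over mutant Snai1 at each of the 1639 windows in replicate 1 (x axis) and as the mean of replicates 2 and 3 (y axis), for H3K4me1 (left) and H3K4me2 (right), centred on the median of all windows. The axes barely correlate (r = -0.06 and -0.05), and the spread is wider along the y axis, with SDs of 0.56 and 0.53 against 0.33 and 0.28.

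The difference in replicates 2 and 3 varied by chromosome. The set's median log2 difference of wild type from mutant in H3K4me1 was -0.46 at 53 windows of chromosome 8, -0.35 at 60 of chromosome 19, 0.27 at 87 of chromosome 17 and 0.25 at 95 of chromosome 6 in replicates 2 and 3, and -0.10, -0.10, -0.14 and -0.06 in replicate 1. Over all windows of chromosomes 8, 19, 17 and 6 it was -0.45, -0.21, 0.26 and -0.02 in replicates 2 and 3, so the set's value for chromosome 6 was not shared by the chromosome's other windows. These shifts were not corrected for, and their part in the values of single windows was not tested.

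The 6 windows with the smallest p in H3K4me1 were all lower in wild type: the neighbours Unc5cl and Tspo2, the overlapping Il1b and Il1bos, the betaine transporter Slc6a12 and Cd40, the costimulatory receptor of antigen-presenting cells. Il1b, the cytokine interleukin 1 beta, had 90.7, 73.0 and 76.4 CPM of H3K4me1 in wild-type Snai1 cells, 127.5, 170.4 and 157.8 CPM in mutant Snai1 cells and 98.0, 81.2 and 81.4 CPM in empty-vector cells. Cd40 had 49.8, 22.8 and 26.1 CPM in wild-type Snai1 cells, 69.7, 87.3 and 79.4 CPM in mutant Snai1 cells and 66.8, 33.0 and 34.2 CPM in empty-vector cells. The wild-type and mutant libraries did not overlap at either gene, and the differences in H3K4me1 did not pass (Il1b -0.90 ± 0.17, edgeR adjusted p 0.499; Cd40 -1.23 ± 0.25, adjusted p 0.563). With replicates 2 and 3 summed and a batch term, Cd40, Tspo2 and Unc5cl did pass in H3K4me1, as did Clec4a1, 4 of 10 such windows in all. Within replicate 1 they were -0.61 at Il1b and -0.60 at Cd40, and over replicates 2 and 3 the difference at Cd40 was -1.62. In H3K4me2 the smallest p belonged to Smim5, Cd40, Mir5124a, Adamtsl2, the glycolytic enzyme gene Aldoc and Snai3. Smim5, a small membrane protein gene, had H3K4me2 of 25.5, 24.3 and 22.5 CPM in wild-type Snai1 cells, 35.4, 79.4 and 73.3 CPM in mutant Snai1 cells and 39.2, 36.1 and 34.7 CPM in empty-vector cells, and did not pass (-1.23 ± 0.21, adjusted p 0.148). Mir5124a went the other way, with 5.1, 26.1 and 32.4 CPM in wild-type Snai1 cells against 3.6, 5.9 and 5.8 CPM in mutant Snai1 cells, and did not pass (2.19 ± 0.50, adjusted p 0.303).

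Set beside empty vector, whose values chose the windows, the median log2 difference in H3K4me1 was -0.13 for wild-type and -0.10 for mutant Snai1 cells, and in H3K4me2 -0.15 and 0.02. A difference of 2-fold in H3K4me1 was reached by 60 windows in wild-type Snai1 cells, 57 of them lower, and by 24 in mutant Snai1 cells, 22 of them lower. Over all windows it was reached by 263 in wild-type Snai1 cells, 225 of them lower, and by 141 in mutant Snai1 cells, 63 of them lower. No direction is read from these values, because windows were taken for high H3K4me1 and low H3K4me2 in the same empty-vector libraries.

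Snai1 peaks of the authors' lists lay near some of these genes. Of the 1423 genes with coordinates, 100 had a peak of the authors' wild-type Snai1 list within 5 kb of either annotated gene end (7.03%, exact 95% interval 5.75 to 8.48). The share was 14.4% of the other windows at the H3K4me1 level, 0.74% of windows below it and 7.80% of all. The wild-type list holds 2929 peaks. The mutant Snai1 list holds 12037 and put 356 of the genes near one (25.02%, against 51.9%, 3.28% and 28.4% in the same order). Of the same genes, 3 were near one of the 137 empty-vector peaks (0.21%, against 0.94%, 0.04% and 0.49%). Lists of such different lengths are not compared with each other, and each is 1 list for 4 technical replicates. By the authors' -log10 q in the wild-type list the first were Sdc4, a heparan sulfate proteoglycan, Il17rc, a receptor chain for interleukin 17, Iqcn and Pde4c, which share a peak, Ddc, the aromatic amino acid decarboxylase, and Flywch2. The peak 1571 bases from Sdc4 has a fold enrichment of 22.9, and the one over an end of Il17rc, at chr6:113482984-113483410 (GRCm38), has 11.9. All 6 genes also lie near peaks of the mutant list. The fold enrichments there are 43.0 and 43.4 for the first 2, 8.76 for Ddc and 8.32 for Flywch2. For Iqcn and Pde4c the mutant values are from separate peaks, neither of them at the shared wild-type site. They are 6.71 at chr8:70718359-70718772 for Iqcn and 6.50 at chr8:70754466-70754681 for Pde4c. Mean H3K4me1 at these 6 windows was between 21.2 CPM (Iqcn) and 76.8 CPM (Ddc) in wild-type Snai1 cells.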

How the data were processed

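H3K4me1, H3K4me2 and IgG ChIP-seq of HPC7 cells was deposited as raw read counts per gene ID in 20 libraries. Per the submitters' processing notes, the authors used Subread and featureCounts, with GRCm38 and mm10 as builds and no versions, and the table's name gives 5 kb for the start-site windows. The deposited Snai1 peak lists give a fold enrichment and a −log10 q per peak, from MACS2 per the submitters' processing notes.

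Columns were matched to samples by name, with 0 left over. Of 27095 windows, 31 repeated rows and 20 rows without reads were left out of tests, and 25204 gene IDs matched RefSeq (GRCm38.p6). CPM is the count over the column total, and log2 values of CPM have 0.5 added. The windows, gene lists and families were chosen with earlier results of these data known.

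Tests used edgeR 4.0.16 (R 4.3.3) glmQLFit and glmQLFTest after filterByExpr, two-sided, with Benjamini-Hochberg adjustment at 0.05 over all windows tested. Marks were compared in 12 Snai1 libraries and with IgG in 8, on column totals, and wild type with mutant in 6 per mark with TMM. Empty-vector libraries, which chose the windows, entered no main test. DESeq2 1.42.0 was an alternative. The scripts were tested on simulated data. Same-numbered libraries of the 2 marks in a construct deviated together (r of 0.36 to 0.69). Those of wild type and mutant did not (r of -0.20 to 0.26). No correlation was computed between differently numbered libraries, and replicate 1 stood apart in every construct and mark. These values therefore cannot show whether the numbers pair the marks. Peak shares carry exact Clopper-Pearson 95% intervals for counting error only.

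Named genes are the 12 highest in H3K4me1 and the 12 highest in the ratio of the marks, up to 6 per list, the 6 smallest p per comparison, the 3 nearest each side of a threshold, the 6 highest and lowest over IgG, the 6 lowest ratios per construct, and 6 by −log10 q. Predicted genes were not named. The printed sequences, and Polr2a, were chosen after values were seen. Results for some genes that the rule covers are not reported here.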

Additional observations from a re-analysis of the deposited data

How the results depend on the processing

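The call that H3K4me1 exceeds H3K4me2 held at 1559 to 1638 of 1638 windows in wild-type Snai1 cells and at 1623 to 1638 in mutant Snai1 cells under every alternative run, among them the replicate block (1638 and 1635). The set itself had 836 windows at a level of 40 CPM, 2468 at a ratio of 3 and 342 at a ratio of 6, and 1568 to 1747 with 1 empty-vector replicate left out. DESeq2 size factors in edgeR left 734 and 675 windows at 4-fold or more.

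The comparison of wild type with mutant Snai1 depended on replicate 1. In H3K4me1, leaving out 1 library gave 0 to 202 windows called: 202 without mutant replicate 1 and 5 without wild-type replicate 1. In H3K4me2 it gave 0 to 147: 147 without mutant replicate 1, 28 without wild-type replicate 1 and 2 without mutant replicate 3. The replicate block gave 63 windows in H3K4me1 (3.85%, against 0.754% of all) and 46 in H3K4me2 (2.81%, against 2.44% of all). The labels do not say what same-numbered libraries of different constructs share. Over the set, variance between constructs was 3.13 to 9.04 times the counting variance in replicate 1 and 12.4 to 19.0 times in replicates 2 and 3 for H3K4me1. For H3K4me2 it was 1.87 to 3.43 and 6.05 to 9.47 times. Between replicate 1 and replicate 2 or 3 of a construct it was 18.4 to 28.7 and 7.91 to 9.93 times. A shared batch was not tested. Replicates 2 and 3 summed, with a batch term, gave 4 in H3K4me1 (Cd40, Clec4a1, Tspo2 and Unc5cl) and 0 in H3K4me2. DESeq2's Wald test gave 9 and 12, and scaling to olfactory and vomeronasal receptor windows gave 4 in H3K4me2. Replicates 2 and 3 alone, a choice made after seeing the data, gave 1037 in H3K4me1, 784 in H3K4me2 and 197 for the balance of the marks, against 10158, 14306 and 1434 of all windows. For that balance, leaving out 1 library gave 0 to 1. The cause was not tested.

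Over IgG, H3K4me1 calls numbered 680 to 1016 and H3K4me2 calls 1543 to 1596 with 1 library left out, and 1608 and 1015 when scaled to olfactory and vomeronasal receptor windows. With 1 library left out, 26170 to 26330 windows were tested in all. Of these, 6355 to 7996 were called higher and 12083 to 13071 lower in H3K4me1, and 8486 to 9245 higher and 14340 to 14546 lower in H3K4me2. Under the scaling, 16481 and 14490 of all 25865 were higher and 1004 and 162 lower. With 2 IgG libraries, and 66 to 121 H3K4me2 counts in a median window, small differences are not detectable.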
